A study of Mus musculus with 6 samples.

Results

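The 10 genes described here are long non-coding RNA genes that carry small nucleolar RNAs (snoRNAs) in their introns: Snhg1, Snhg3, Snhg5, Snhg6, Snhg8, Snhg12, Snhg15, Gas5, Zfas1 and Epb41l4aos. They were taken by symbol from a deposited table of 57180 genes, and all 10 were found and passed the filter on low counts. The table covers 6 libraries of GC-1 spg, an immortalised mouse spermatogonial cell line grown in serum-containing medium. The labels assign 3 libraries to SNHG1 overexpression, called the labelled libraries here, and 3 to a vector control, all collected 24 hours after transfection. All 6, controls included, also carry the treatment label Non-obstructive azoospermia. No source used here gives the sequence or promoter of the construct, the share of cells transfected or whether replicates were separate cultures. If they were not, the p-values below cover technical spread alone.

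A snoRNA host gene is transcribed as a precursor that is spliced. The introns release snoRNAs, which guide the methylation or pseudouridylation of ribosomal RNA, and the joined exons form a host RNA that is often short-lived. Many host RNAs start with a pyrimidine tract, as ribosomal protein mRNAs do, and are degraded by nonsense-mediated decay when ribosomes engage their short reading frames. The libraries were made from poly(A)-selected RNA, which keeps the spliced host RNA and disfavours mature snoRNAs, since these lack a poly(A) tail.

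Total counts ran from 15521900 to 21095427, and 1 count stood for 0.048 to 0.065 CPM (counts per 1000000 counts of the tested genes, scaled by TMM factors). A count of 0 allows up to 0.143 to 0.194 CPM, for counting error only. The labels call the cells germ cells. Of 10 spermatogonial and meiotic markers, Ddx4, Zbtb16, Kit, Id4 and Nanos2 had no count in any library, and the receptor Gfra1 alone passed the filter, at 2.43 ± 0.298 CPM in the labelled group and 1.92 ± 0.426 CPM in the controls (SD, n = 3). The summed level of 5 fibroblast markers was 18040 to 18860 CPM in the labelled group and 21530 to 22900 CPM in the controls, and it is mostly collagen mRNA. Dcn, also on that list, had only 2 to 5 counts per library and was not tested. Of the 5, Col1a2 and Col3a1 were called lower, at log2 differences of -0.30 ± 0.04 and -0.52 ± 0.07, and Pdgfra was called higher, at 0.47 ± 0.07 (SE; edgeR, adjusted p = 0.00797, 0.0103 and 0.0143). The 5 macrophage markers summed to 27.4 to 31.5 CPM against 17.8 to 19.4 CPM, most of it Cd14, which alone was called, at 0.76 ± 0.10 (SE; edgeR, adjusted p = 0.00728). Cd68, at 3.83 against 2.47 CPM, and Ptprc, at 0.297 against 0.1325 CPM, also had higher means in the labelled group. Csf1r, at 1.04 against 1.44 CPM, and Adgre1, at 0.168 against 0.336 CPM, had lower means in the labelled group, and none of the 5 was at 0 in every library. The part of these differences in the results below was not tested. In bulk RNA, fewer cells of a type and less RNA per cell cannot be told apart.

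The snoRNAs encoded inside Snhg1 are shown because the table gives each of them a row of its own beside the host. The sequences are those of GENCODE M21 on GRCm38, from chr19:8723993-8724064 for the first to chr19:8725866-8725991 for the last, all on the plus strand. Capitals mark TGATGA within the first 20 bases and CTGA within the last 20, the letters of the C and D boxes that bind the shared proteins of box C/D snoRNAs. Only the strand of the snoRNA was searched, and the motifs do not overlap.
Gm25855: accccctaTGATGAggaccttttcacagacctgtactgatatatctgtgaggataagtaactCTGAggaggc
Gm25894: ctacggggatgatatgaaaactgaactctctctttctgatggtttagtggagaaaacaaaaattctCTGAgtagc
Gm24452: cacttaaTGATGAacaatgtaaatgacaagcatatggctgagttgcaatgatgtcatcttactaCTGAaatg
Gm24453: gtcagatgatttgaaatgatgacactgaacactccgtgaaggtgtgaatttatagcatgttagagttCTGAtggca
Gm22744: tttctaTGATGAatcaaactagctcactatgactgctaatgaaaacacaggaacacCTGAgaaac
Gm22680: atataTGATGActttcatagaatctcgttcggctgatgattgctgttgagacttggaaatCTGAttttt
Gm23246: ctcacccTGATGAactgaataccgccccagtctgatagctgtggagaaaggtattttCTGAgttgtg
Snord22: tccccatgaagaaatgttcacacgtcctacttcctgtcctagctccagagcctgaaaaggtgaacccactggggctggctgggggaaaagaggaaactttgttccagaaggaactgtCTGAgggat
All 8 held CTGA in that window and 5 held TGATGA, as did 35.4% and 21.7% of the 1507 snoRNAs of that annotation. Those 1507 are of every class and not box C/D snoRNAs alone. A match describes letters and not a functional site.

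None of the 10 host genes passed the test between the labelled and the vector libraries, Snhg1 included. The edgeR quasi-likelihood test called 0 of 10 at an adjusted p of 0.05, against 2.4% of the 14605 genes tested (1.54% higher and 0.856% lower). At an unadjusted p under 0.05 the count was again 0, against 17% of all tested genes. DESeq2 called 0 of the 10 and 4.42% of all tested genes (2.46% higher and 1.96% lower), and limma-voom 0 of the 10 and 2.38% (1.5% higher and 0.876% lower). The median log2 fold change was 0.09 over the hosts and 0.01 over all tested genes, with 8 hosts above 0 and 2 below. In no host did the CPM ranges of the groups lie apart, while they did so for 23.7% of tested genes. With 9 of the 10 genes the 95% interval ended below a 2-fold increase, and the exception was Snhg6.

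**Figure D1:**
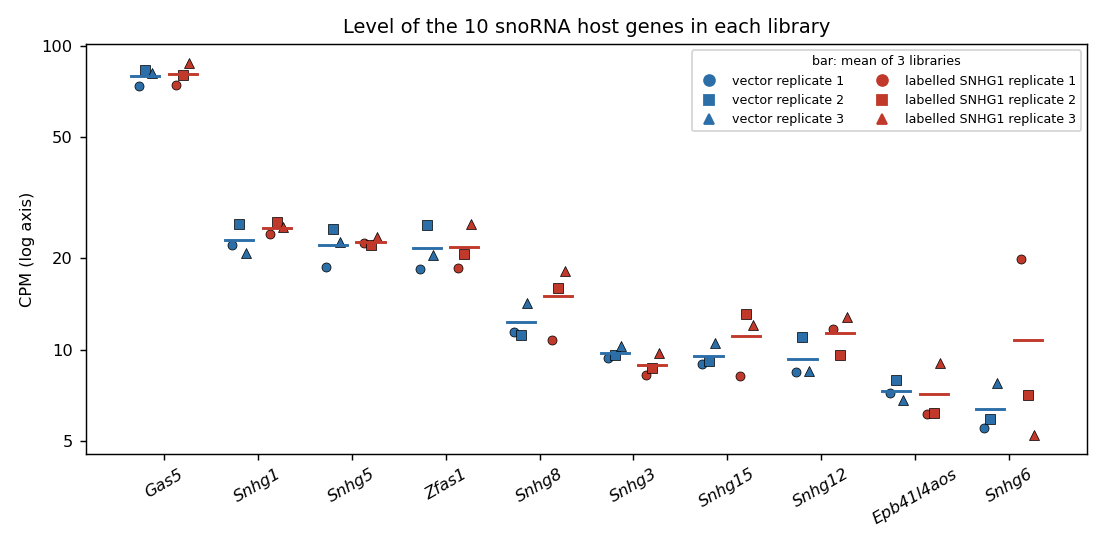
CPM of each host gene (log axis) in the 3 vector libraries (blue) and the 3 libraries labelled SNHG1 overexpression (red); each point is a library, its shape the replicate number, and bars are means. Gas5 sits highest in every library, the groups overlap for all 10 genes, and Snhg6 has a single point far above the rest, labelled replicate 1.

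Snhg1 is the gene named in the labels, and here the question was how large an increase the libraries leave possible. Its CPM was 24.0, 26.4 and 25.3 in labelled replicates 1, 2 and 3 and 22.1, 25.9 and 20.9 in the vector libraries. Vector replicate 2 lay above labelled replicates 1 and 3, so the groups overlapped. The 1.10-fold ratio had a 95% interval from 0.94-fold to 1.29-fold (edgeR, adjusted p = 0.52, n = 3 per group). Snhg1 lies at chr19:8700801-8703811 as the table gives it, without a named build. A transcript from a construct is counted in this row only where its sequence matches the mouse gene. What the construct carried was not tested.

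Snhg12, Snhg8 and Snhg15 had the next larger estimates after Snhg6. Snhg12 hosts Snord99 and also H/ACA snoRNAs that guide pseudouridylation. Its level was 11.7, 9.64 and 12.8 CPM in the labelled group and 8.48, 11.0 and 8.52 CPM in the controls. Labelled replicate 2 lay below vector replicate 2, and the log2 difference was 0.289 ± 0.155 (SE; edgeR, adjusted p = 0.379). Snhg8, the host of Snora24, stood at 10.8, 16.0 and 18.2 CPM against 11.4, 11.2 and 14.3 CPM. Labelled replicate 1 was the lowest of all 6 libraries and labelled replicates 2 and 3 the highest. Snhg15, the host of Snora9, showed that same order, with 8.22, 13.1 and 12.0 CPM against 8.96, 9.16 and 10.5 CPM. Without labelled replicate 1 the log2 difference rose to 0.47 for Snhg8 and to 0.396 for Snhg15, with adjusted p = 0.101 and 0.109 (edgeR), and neither passed.

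Snhg6, the host of Snord87, had the highest fold change and the widest spread. Its counts were 387, 150 and 101 in the labelled libraries and 116, 92 and 143 in the vector libraries. Labelled replicate 1 stood at 19.9 CPM, and the other 5 libraries lay between 5.24 and 7.76 CPM. The log2 difference of 0.745 ± 0.458 (SE; edgeR, adjusted p = 0.447) became -0.05 without that library. The coefficient of variation was 74.1% among the labelled libraries, where counting error alone gives 6.86%. Snord87 itself, inside the same gene, had 10, 12 and 17 counts against 8, 13 and 12 and was not high in labelled replicate 1. The table gives Snhg6 a span of 87590 bases, against 2160 in GENCODE M21. That span overlaps Sgk3 with 3 counts over all libraries and Mcmdc2 with 0. Which part of the span gave the 387 counts was not tested.

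Gas5, Snhg5 and Zfas1 had estimates close to 0, with log2 differences of 0.01 to 0.04. Gas5, whose RNA accumulates in growth-arrested cells, stood at 74.6, 79.9 and 88.1 CPM in the labelled group and 73.8, 83.1 and 81.1 CPM in the controls. Its interval, from 0.90-fold to 1.16-fold, was the narrowest of the 10. Snhg5, which carries Snord50a and Snord50b, stood at 22.4, 22.1 and 23.6 CPM against 18.7, 25.04 and 22.6 CPM. The labelled libraries lay inside the range of the vector libraries. The table gives Snhg5 a span of 28295 bases, against 1880 in GENCODE M21. Zfas1, which starts beside Znfx1 on the other strand and hosts Snord12 snoRNAs, stood at 18.6, 20.7 and 25.9 CPM against 18.4, 25.8 and 20.6 CPM, with an interval from 0.78-fold to 1.303-fold.

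Snhg3 and Epb41l4aos were the 2 hosts with estimates below 0. Snhg3, the host of Snora73a and Snora73b, stood at 8.27, 8.74 and 9.76 CPM in the labelled group and 9.43, 9.62 and 10.3 CPM in the controls. Only labelled replicate 3 reached the vector range, and the log2 difference was -0.13 ± 0.11 (SE; edgeR, adjusted p = 0.569). Snhg3 overlaps the coding gene Rcc1 on the same strand, so reads of the shared part could be counted for either. Epb41l4aos, which lies next to Epb41l4a and is transcribed towards it, stood at 6.17, 6.22 and 9.03 CPM against 7.24, 7.94 and 6.84 CPM. Here labelled replicate 3 was the highest of all 6 libraries and the other 2 labelled ones the lowest.

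**Figure D2:**
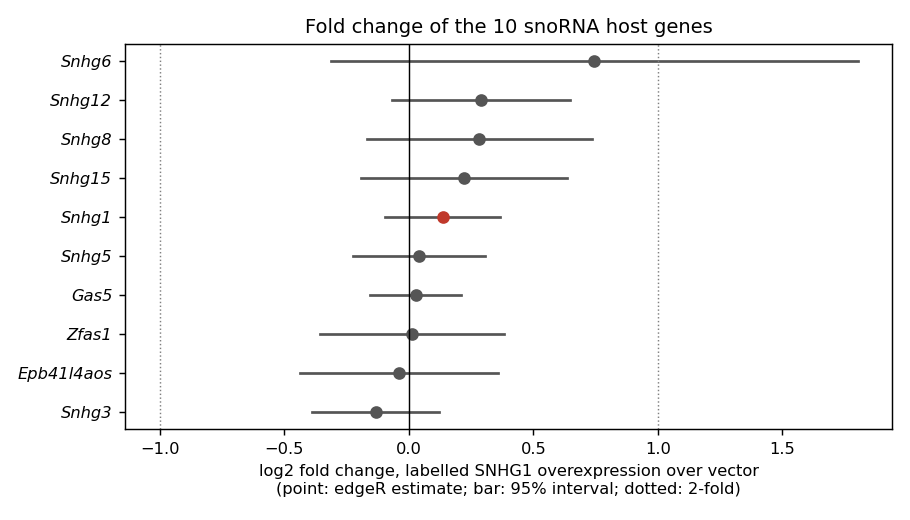
Log2 fold change of each host gene, labelled over vector (edgeR estimate with its 95% interval, 3 libraries per group). All 10 intervals cross 0, and the interval of Snhg6 alone reaches past the dotted 2-fold line, to 1.802.

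The same libraries were often lowest or highest across hosts. Within the labelled group 7 of the 10 were lowest in replicate 1 and 7 were highest in replicate 3. Among the vector libraries 7 were lowest in replicate 1 and 6 highest in replicate 2. Whether this order is particular to the hosts or common to other genes was not tested. The summed CPM of the 10 hosts was 205, 210 and 230 in the labelled libraries and 184, 215 and 203 in the vector libraries. These sums overlapped, and their means were 215 ± 13.4 and 201 ± 15.5 CPM (SD, n = 3).

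Relative abundance among the hosts was led by Gas5. It held 37.6 ± 1.01% of the 10 hosts' counts in the labelled libraries and 39.6 ± 0.749% in the controls (SD, n = 3). Snhg1 held 11.8 ± 0.785% and 11.5 ± 1.02%, a difference of 0.309 percentage points (two-sided exact permutation test, p = 0.7, adjusted p = 0.778 over 10 hosts). For Gas5 and Snhg3 the shares of the groups did not overlap, and both were lower in the labelled libraries, Snhg3 at 4.15 ± 0.101% against 4.89 ± 0.359%. Their exact p of 0.1 is the smallest that 20 splits of 3 against 3 allow, and the adjusted p was 0.5. A share falls when another host rises, and the share of Snhg6 in the labelled libraries, 5.13 ± 4.01%, rested on replicate 1. In labelled replicates 2 and 3 the Snhg6 share was 3.395% and 2.28%. The Gas5 share in these 2 libraries, 38.1% and 38.3%, was still below the lowest vector share of 38.7%. In shares of the deposited FPKM the groups overlapped for Gas5 (exact permutation test, p = 0.3) but not for Snhg3. What moved the shares was not tested.

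The level per length put the hosts in another order than the deposited FPKM. Counts were divided by the median length of each gene's GENCODE M21 transcripts, since a longer RNA yields more fragments. In the vector libraries Gas5 led with 126 ± 7.81 CPM per kilobase, followed by Snhg1 with 38.1 ± 4.37 (SD, n = 3). Gas5 lay 3.31 times above Snhg1, with no overlap. From Snhg1 down through Zfas1, Snhg5, Snhg8, Snhg3 and Epb41l4aos, each gene's range overlapped that of the next. Within every single vector library, Snhg1 still lay above Zfas1, Zfas1 above Snhg5, Snhg5 above Snhg8 and Snhg3 above Epb41l4aos. Snhg8 and Snhg3 changed order between libraries. These orders were not tested. Snhg15 at 16.0 ± 1.43 and Snhg6 at 11.5 ± 2.13 CPM per kilobase were each set apart from the gene above. Snhg12 was lowest at 10.2 ± 1.598 and overlapped Snhg6. Among 984 tested lncRNA genes with a length, Gas5 ranked 6 and Snhg1 27 on this scale.

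In the deposited FPKM, Snhg3 at 5.32 ± 0.259 and Snhg8 at 5.08 ± 0.707 were instead the highest, Gas5 at 1.31 ± 0.0833 had rank 5 and Snhg1 at 1.11 ± 0.128 rank 7 (vector libraries, SD, n = 3). The gene length that links each count to its FPKM was 60525 bases for Gas5, which spans 4125, and 1834 for Snhg3. It exceeded the gene's own span in 7 of the 10 hosts. GENCODE M21 lists 25 transcripts for Gas5, 18 for Snhg1 and 5 for Snhg3, and this implied length was 96.2, 34.4 and 4.2 times their median transcript length. The choice of transcript matters too: with the longest transcript in place of the median, Gas5 stayed first and Snhg1 fell to rank 8.

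**Figure D3:**
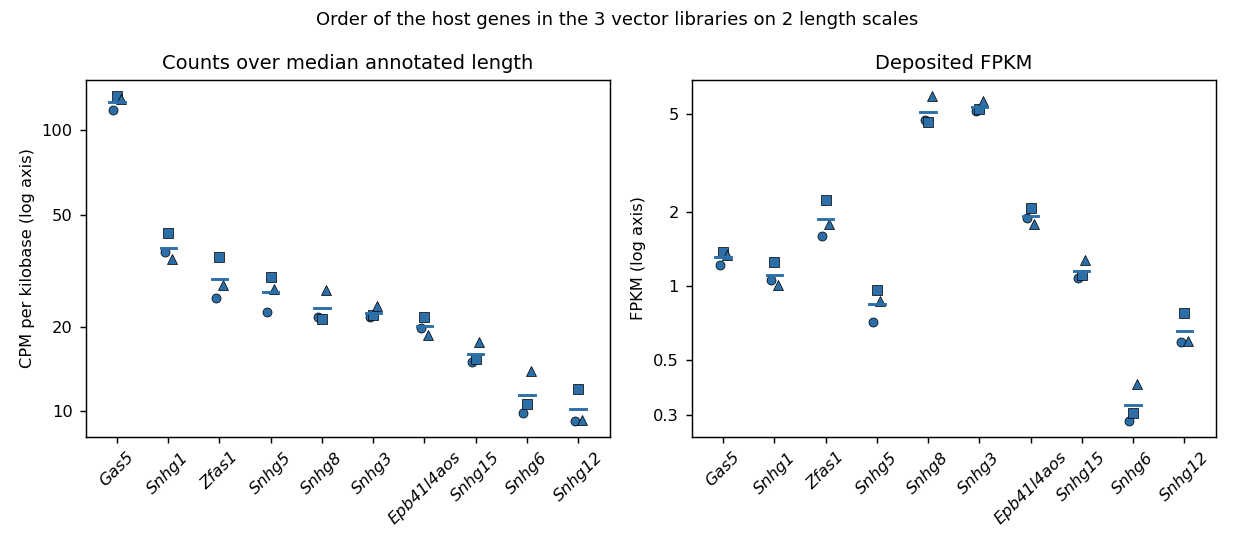
Level of the 10 hosts in the 3 vector libraries, as CPM per kilobase of median transcript length (left) and as deposited FPKM (right), both on log axes, with bars at the mean. Gas5 leads on the left at 126 and sits at 1.31 on the right, below Snhg3 and Snhg8.

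The snoRNA rows inside the hosts held few counts, and the values came in 2 levels. By deposited coordinates 34 snoRNA rows lay within the 10 hosts, 30 on the host's strand and 4 without a strand in GENCODE M21. Of their 204 values, 111 were exactly 1, 89 were 5 or more, 4 were 0 and 0 lay from 2 to 4. Values of exactly 1 made up 54.4% here, 9.39% over all 1507 snoRNA rows and 1.77% over protein coding rows. Of the 9042 values in all snoRNA rows, 7273 were 0 and 365 lay from 2 to 4. In 13 rows the value was 1 in all 6 libraries, among them 5 of the 8 snoRNAs of Snhg1: Gm25855, Gm22744, Gm22680, Gm23246 and Snord22. A row is not always a separate snoRNA, since Snord80 of Gas5 and Snora16a of Snhg12 each had more than 1 overlapping row. The Snord80 row of 81 bases was among these 13, while that of 77 bases had 21 to 34 counts. In 10 rows every library had 5 or more. Another 10 rows held 1 in some libraries and 5 or more in others, and in 9 of these the levels did not follow the labels. Gm24452 of Snhg1 is an example, with 1, 24 and 1 counts in the labelled libraries and 1, 30 and 1 in the vector libraries. Whether such values are plain tallies of reads was not tested, and counts from snoRNA, host intron and unspliced precursor cannot be told apart.

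Of 14 snoRNA rows that passed the filter, Snora9 alone passed the test, where 2.4% of all tested genes did so (edgeR). Its counts were 12, 18 and 13 in the labelled libraries and 1 in each vector library, and it lies inside Snhg15, whose own groups overlapped. The edgeR log2 fold change was 3.56 ± 0.48 (SE, adjusted p = 0.00996), and this fold rests on the 3 vector values of 1. The row passed the filter on low counts only through its labelled libraries, at 0.617 to 0.855 CPM. Passing the test therefore gives no independent support for a difference. Limma-voom passed it as well (adjusted p = 0.00620), and DESeq2 gave no adjusted p. Without vector replicate 1 or 3 the log2 fold change was 3.46 or 3.56 and the call was lost (edgeR, adjusted p = 0.0587 and 0.0539). The row does not pass a filter of 1 CPM in 3 libraries. Snora9 is an H/ACA snoRNA, shown because it is the sole member of these rows that passed. In GENCODE M21 it spans chr11:6528033-6528165 on the minus strand of GRCm38, inside an exon of 1 of the 4 Snhg15 transcripts. Capitals mark ACA directly before the last 3 bases, which 18.3% of all snoRNAs of that annotation, box C/D ones included, also hold.
Snora9: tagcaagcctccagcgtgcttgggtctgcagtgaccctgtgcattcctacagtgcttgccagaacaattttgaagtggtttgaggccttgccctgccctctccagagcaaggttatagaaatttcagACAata

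Snora73b was the snoRNA row with the most counts, and it did not pass. It had 69, 109 and 109 counts in the labelled libraries and 79, 65 and 73 in the vector libraries. On the CPM scale these were 3.545, 5.18 and 5.66 against 3.76, 4.195 and 3.96, so labelled replicate 1 was the lowest of all 6 libraries and labelled replicates 2 and 3 the highest (edgeR, adjusted p = 0.504). The snoRNAs of Snhg3 together held 59.0% as many counts as Snhg3 itself, the highest ratio of the 10 hosts, and the rows inside Snhg1 held 11.9%. Of the 30 snoRNAs with a known strand, 26 lie wholly inside an exon of at least 1 annotated host transcript. For the other 4, no annotated host exon covers the whole snoRNA. How the authors divided reads between such overlapping rows was not stated in any source used here.

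**Figure D4:**
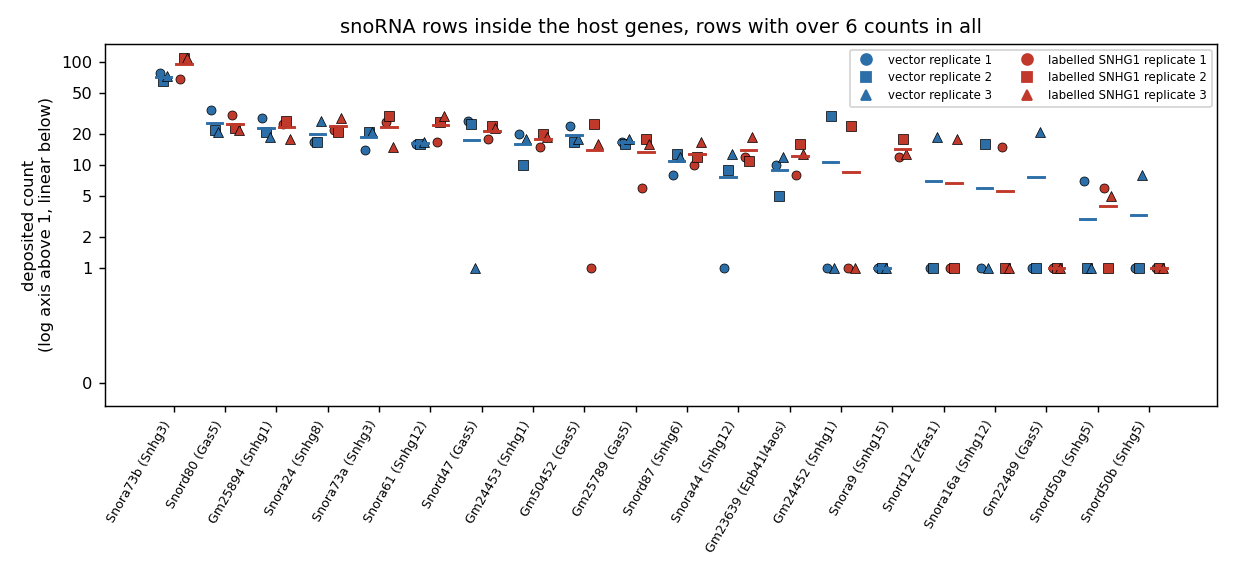
Deposited counts of the 20 snoRNA rows inside the hosts that had over 6 counts in all (log axis above 1, linear below), by library, with bars at the mean. Points sit either on the line at 1 or at 5 and above; Snora9 has its 3 vector points at 1 and its 3 labelled points at 12 to 18.

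Snhg1 shares its promoter region with Slc3a2, the heavy chain of amino acid transporters, which is transcribed the other way. The window is shown because both genes were measured and neither passed: Slc3a2 stood at 205 ± 11.2 CPM in the labelled group and 196 ± 6.04 CPM in the controls (SD, n = 3), a log2 difference of 0.07 ± 0.06 (SE; edgeR, adjusted p = 0.596). It is the RefSeq sequence of chr19:8723237-8723536, plus strand, GRCm38.p6, and capitals mark the 105 bases between the starts of Slc3a2 and Snhg1 in GENCODE M21.
Snhg1 promoter: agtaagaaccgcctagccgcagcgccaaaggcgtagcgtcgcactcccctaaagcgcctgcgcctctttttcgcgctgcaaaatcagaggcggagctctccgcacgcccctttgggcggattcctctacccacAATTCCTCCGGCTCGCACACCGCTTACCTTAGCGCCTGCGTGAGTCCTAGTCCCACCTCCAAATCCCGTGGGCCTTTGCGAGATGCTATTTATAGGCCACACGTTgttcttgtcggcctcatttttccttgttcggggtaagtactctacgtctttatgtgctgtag

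Pyrimidine tracts at the starts were compared because they are the known shared feature of many host RNAs. The comparison used 9 start sites of 8 of the 10 hosts from the RefSeq promoter table. Snhg6 and Epb41l4aos were not included, so their starts were not tested. The longest unbroken run of C and T beginning within 15 bases of the start had 7 or more bases at 4 of the 9 sites, and at 22.2% of all 32851 sites in the table. Those 4 are shown from 20 bases before to 20 bases after the start (GRCm38.p6), with that run in capitals. Snhg1 lies at chr19:8723467-8723506 and Snhg12 at chr4:132308658-132308697, on the plus strand, and Snhg5 at chr9:88522878-88522917 and Snhg8 at chr3:123508317-123508356, on the minus strand.
Snhg1: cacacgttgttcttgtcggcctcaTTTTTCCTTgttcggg
Snhg12: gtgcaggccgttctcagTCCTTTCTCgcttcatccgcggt
Snhg5: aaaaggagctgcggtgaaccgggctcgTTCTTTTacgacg
Snhg8: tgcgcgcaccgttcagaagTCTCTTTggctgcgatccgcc
The runs of Snhg1 and Snhg12 had 9 bases, a length reached at 9.83% of all sites. The run at the other 5 sites had 3 to 6 bases. TATAAA within the 50 bases before the start, searched on the gene's strand, was found for Snhg5 and Snhg8, and at 2.63% of all sites. These are descriptions of letters near annotated starts, and the starts used in these cells were not measured.

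Coding genes that start closest to a host did not pass either. Of 10 such neighbours 7 were tested and 0 were called, against 2.4% of all tested genes (edgeR), with log2 differences from -0.81 for Prss12, at 84 counts in all, to 0.09 for Znfx1. Beside Slc3a2, the starts of Rcc1 and Znfx1 lay 81 bases from those of Snhg3 and Zfas1, and that of Zbtb37 427 bases from that of Gas5. The starts of the other neighbours lay farther off, from 5236 bases for Rab42 to 212130 for Epb41l4a. Zfp949 lay 24458 bases from Snhg5 by this measure and Prss12 61491 bases from Snhg8. Rcc1, the exchange factor of the Ran GTPase, was at -0.06 ± 0.15, the helicase gene Znfx1 at 0.09 ± 0.07 and the zinc finger gene Zbtb37 at -0.10 ± 0.06 (log2, SE). Zfp949, the neighbour of Snhg5, was at -0.28 ± 0.11 and Epb41l4a at -0.07 ± 0.07, and Tcf24, Rab42 and Myo1g were too low to test. Prss12 and Zfp949 had unadjusted p = 0.0246 and 0.0353 (edgeR), and 17% of all tested genes had one under 0.05. The groups did not overlap for Zfp949, Prss12 and Zbtb37, 3 of the 7 tested, where 23.7% of all tested genes lay apart. Znfx1 and Zbtb37 overlap their hosts on the other strand. The library kit marks strand, but the strand setting of the counting was not stated in any source used here.

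The genes of host RNA biology listed around the 10 members were also not called. On 6 lists, 0 of 73 tested rows passed, against 2.4% of all tested genes (edgeR), and 15 had an unadjusted p under 0.05, a level reached by 17% of all tested genes. The number called was 1 with DESeq2, against 4.42% of all tested genes, and 0 with limma-voom, against 2.38%. Among 9 tested rows of other lncRNA hosts the median log2 fold change was 0.01, and Snhg18 had the smallest p at -0.21 ± 0.14. Among 24 protein coding hosts, mostly translation genes, it was 0.065, and the helicase gene Eif4a1, which DESeq2 called, stood at 250 ± 17.6 against 200.3 ± 10.7 CPM (SD, n = 3; edgeR, adjusted p = 0.0635; DESeq2, adjusted p = 0.00685). The 8 core snoRNP proteins, which package the snoRNAs, had a median of 0.12, and Nop10, of the H/ACA particle, was at 0.29 ± 0.11. The 9 assembly factors had 0.17, with the ATPase gene Ruvbl1 at 0.23 ± 0.07. The 15 factors of nonsense-mediated decay had -0.03, with Smg5, which helps to release the helicase Upf1, at 0.19 ± 0.06. The 9 regulators of pyrimidine-tract mRNAs had 0.05, with the mTORC1 subunit gene Rptor at -0.22 ± 0.06 (log2, SE).

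Labelled replicate 1 decided the count on these lists. Without it, 9 of 73 rows passed, 8 higher and 1 lower, where 5.42% of all genes tested did so, 2.91% higher and 2.5% lower (edgeR). The higher genes were the coding hosts Rpl7a, Rps3, Eif4a1, Rack1 and Eef1b2, the H/ACA core genes Nhp2 and Nop10 and the assembly gene Ruvbl1, at log2 differences of 0.21 to 0.41. Eif4a2, the paralog of Eif4a1, was lower at -0.37 ± 0.08 (SE). Those genes other than Eif4a1, Nop10 and Ruvbl1 were named after their values were seen. The number of host genes called stayed 0 in that fit.

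**Figure D5:**
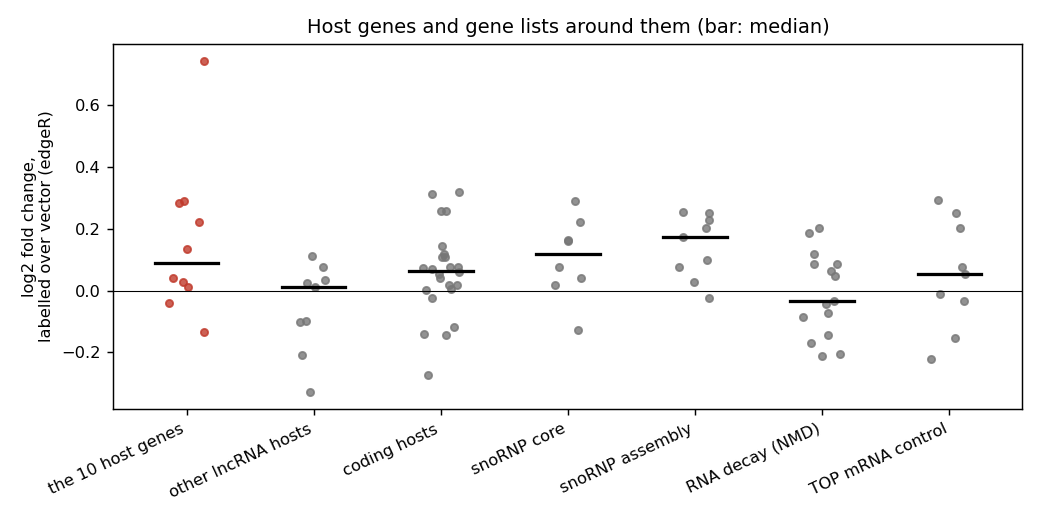
Log2 fold change (edgeR, labelled over vector) of the 10 host genes in red and of the tested rows of the 6 lists in grey, with bars at the median of each. All medians lie between -0.03 and 0.17, and Snhg6 at 0.745 is the single point above 0.4.

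The genes whose levels over the 6 libraries ran closest to Snhg1 were chosen by the smallest root-mean-square difference of log2 CPM, after each gene's own mean was removed. Among 13222 genes compared these were Sting1, Mrpl3, Gm13205, Mrps36-ps1 and Acot13, with differences of 0.02 to 0.03, while Snhg1 itself covered a range of 0.33 log2 units. None of the 5 passed the test, where 2.4% of all tested genes did (edgeR). The choice nearly fixed this, since Snhg1 itself did not pass. Of the other hosts, Gas5 at 0.12 and Snhg5 at 0.12 were closest to Snhg1, at ranks 1616 and 1929, and Snhg6 at 0.67 was farthest.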

How the data were processed

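Stranded, poly(A)-selected libraries were sequenced as paired ends, per the labels' protocols. The deposited table gives a read count and an FPKM value per gene and library, both made by the authors. HISAT2, SAMtools 1.3.1 and StringTie are named in the submitters' processing notes without their roles. The notes also name the human build GRCh38, while the gene IDs are mouse, so deposited coordinates are given without a build. The deposited FPKM values are scaled by gene length and library size, as the unit's name says, and were described and not tested.

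Counts were tested with edgeR 4.0.16 in R 4.3.3 (filterByExpr, TMM factors, quasi-likelihood test, Benjamini-Hochberg threshold 0.05) over all 14605 genes that passed, 3 libraries against 3. Rows without a symbol (525, with 0.194% of counts) could not be named but stayed in the fit. DESeq2 1.42.0, limma-voom 3.58.1, other scalings and filters, a replicate block and leaving out each library were alternatives. Shares used a two-sided exact permutation test. Strand, transcript lengths and snoRNA sequences came from GENCODE M21 by gene ID, found for 10 of 10 hosts, and start sites from RefSeq (GRCm38.p6). The edgeR steps were tested on simulated data.

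The members and lists were chosen with earlier results of these data known. Named genes were the 10 hosts, the gene with the smallest p on each list where none was called, the nearest coding neighbours and the 5 genes most like Snhg1 with a mean of at least 20 counts. The snoRNA rows described singly, the cell type markers given with values, Sgk3 and Mcmdc2 were named after their values were seen.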

Additional observations from a re-analysis of the deposited data

How the results depend on the processing

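None of the 10 hosts passed under any of 13 alternatives, with the lowest adjusted p at 0.101 for Snhg8 (edgeR), and the log2 difference of Snhg1 ran from 0.07 to 0.22. Of 130 host estimates 10 changed sign, all on leaving out a library. The estimates so obtained ran from -0.073 (without vector replicate 1) to 0.133 for Snhg5, from -0.049 (without labelled replicate 1) to 1.074 for Snhg6, from -0.037 to 0.081 for Gas5, from -0.132 to 0.15 for Zfas1 and from -0.241 to 0.053 for Epb41l4aos. Gas5 fell below 0 without labelled replicate 3 or vector replicate 1 (-0.027), and Zfas1 without either of these (-0.095 without the latter) or vector replicate 3 (-0.024). Epb41l4aos rose above 0 without labelled replicate 1 or 2 (0.051) or vector replicate 2 (0.013). On leaving out a library the share of Snhg1 differed by -0.282 (without vector replicate 3) to 0.693 percentage points, and by -0.091 without labelled replicate 2. Over the whole table DESeq2 called 646 genes, and leaving out a library gave 123 (without vector replicate 1) to 807 (without labelled replicate 1) in place of 350. Changed snoRNA rows numbered 0 under the 1 CPM filter, which removed Snora9, and 0 with DESeq2, which gave Snora9 no adjusted p. Neither 0 is therefore a test of Snora9. On leaving out a library they numbered 0 to 1. Called genes on the lists numbered 1 with DESeq2 and 0 to 9 on leaving out a library, 9 without labelled replicate 1. The settings for snoRNA rows, lists and neighbours were chosen after seeing the data. The causes were not tested. For Snhg6 the interval reached 3.49-fold, so a 2-fold change was not resolved.

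With the replicate number as a block (replicate block), 163 genes were called over the whole table and Snhg1 stood at 0.138 (edgeR, adjusted p = 0.527). The number of hosts called stayed 0. Deviations from the group means correlated at 0.042, -0.18 and -0.068 between same-numbered libraries over 8223 genes. Between differently numbered ones they correlated at -0.089 to 0.163. With 3 libraries per group, these values cannot tell whether the libraries were paired.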
